A study of Mus musculus with 14 samples.

Results

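The genes described here encode the ephrins, the semaphorins and the receptors of both, followed across 14 RNA-seq libraries of mouse stem cells. The members are all rows of the expression table whose symbol matched in full an Eph receptor (Epha or Ephb with digits), an ephrin (Efna or Efnb with a digit), a semaphorin of classes 3 to 7, a plexin, Nrp1 or Nrp2. This gave 53 of 23174 rows: 9 EphA and 5 EphB receptors, 5 A-type and 3 B-type ephrins, 9 plexins, 2 neuropilins, 7 class 3 semaphorins and 13 semaphorins of classes 4 to 7. The study followed embryonic stem cells (ESCs) as they were driven towards extraembryonic endoderm (XEN) cells, the stem cells of the yolk sac endoderm, and asked what Zfp281, a zinc finger transcription factor, does in that change. 4 lines on the 129S1/SVImJ background were sampled at 3 stages, with 1 library per line and stage. WT3 is wild type. KO3.34 and KO2.6 are Zfp281 knockout lines (the cell line field of the latter gives a different number from its title), and Rescue3.34 is KO3.34 with Zfp281 restored. WT3 and Rescue3.34 are called the Zfp281-present lines. Stage ESC was grown on gelatin in serum with leukemia inhibitory factor. At cXENp1, passage 1 of chemically induced XEN differentiation, cells of every line had spent 48 hours in XEN medium with activin A (10 ng/mL) and all-trans retinoic acid (0.01 µM). At cXENp3, cells of every line had passed over fibroblast feeders (passage 2) and were back on gelatin in XEN medium. XENB1 (background given as 129S1) and XEN5 are established wild-type XEN lines grown in feeder-conditioned medium. Values are FPKM, which scale fragments by the length of the transcript and by the size of the library, and the 4 lines are always given in the order WT3, Rescue3.34, KO3.34 and KO2.6, followed by XENB1 and XEN5.

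Ephrins are membrane-bound ligands. A-type ephrins hang on the membrane by a lipid anchor and bind mainly EphA receptors, while B-type ephrins span the membrane and bind mainly EphB receptors, so that both cells of a touching pair can receive a signal and often move apart. Semaphorins of class 3 are secreted and act largely through a neuropilin paired with an A-type plexin, whereas most semaphorins of classes 4 to 7 sit in the membrane and bind plexins directly. Both systems were first studied as guides of axons, and they also sort cells and shape vessels and epithelia in the embryo.

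The promoters of 4 members that recur in the results are shown first, because these genes mark the main patterns. They are Efnb2 and Nrp1, raised in all 4 lines at cXENp1, Ephb3, high in XEN lines and in knockout cXENp3, and Sema5b, high in ESCs. Each line holds the 250 bases before the RefSeq gene start in GRCm38.p6, which is not the build of the expression table, read 5′ to 3′ on the gene's strand, with every CG dinucleotide in capitals. The windows are chr8:8661243-8661492 on the minus strand for Efnb2, chr16:21204545-21204794 on the plus strand for Ephb3, chr8:128358823-128359072 on the plus strand for Nrp1 and chr16:35541112-35541361 on the plus strand for Sema5b.
Efnb2: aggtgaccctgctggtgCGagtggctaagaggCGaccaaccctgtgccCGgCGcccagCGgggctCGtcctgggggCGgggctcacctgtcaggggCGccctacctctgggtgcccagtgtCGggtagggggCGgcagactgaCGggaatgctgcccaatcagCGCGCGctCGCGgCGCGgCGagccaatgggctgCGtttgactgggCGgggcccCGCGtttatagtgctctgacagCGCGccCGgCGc
Ephb3: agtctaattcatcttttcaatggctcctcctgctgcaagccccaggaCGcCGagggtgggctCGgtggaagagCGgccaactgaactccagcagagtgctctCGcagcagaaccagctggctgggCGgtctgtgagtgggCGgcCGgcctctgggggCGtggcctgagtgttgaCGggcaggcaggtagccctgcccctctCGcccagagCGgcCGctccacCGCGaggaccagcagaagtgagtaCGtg
Nrp1: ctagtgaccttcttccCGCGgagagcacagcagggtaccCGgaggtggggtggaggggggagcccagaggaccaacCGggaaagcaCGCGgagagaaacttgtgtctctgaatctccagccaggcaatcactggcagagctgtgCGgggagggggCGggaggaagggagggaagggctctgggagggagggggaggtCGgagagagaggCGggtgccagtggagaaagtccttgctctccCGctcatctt
Sema5b: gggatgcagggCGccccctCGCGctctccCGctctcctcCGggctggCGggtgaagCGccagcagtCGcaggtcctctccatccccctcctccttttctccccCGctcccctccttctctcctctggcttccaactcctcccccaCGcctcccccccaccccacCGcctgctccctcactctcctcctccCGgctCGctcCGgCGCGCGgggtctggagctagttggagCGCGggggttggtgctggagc
The Efnb2 window holds 27 CG dinucleotides, Sema5b 19, Ephb3 16 and Nrp1 11. RefSeq promoters were matched for 47 of the 53 members, with 61 starts, and not for Efnb3, Plxna1, Plxna4, Sema3b, Sema3f and Sema6a. The members' windows were rich in CG: the median ratio of observed to expected CG was 0.611 against 0.374 over all 32851 starts, and the median GC content was 64.4% against 52.4%. Both strands were searched for 3 short motifs. The GATA factor motif AGATAA was in 2 of 61 member windows (3.28%), those of Efna4 and Epha3, against 9.99% of all windows. The G-rich run GGGGAGGGG, of the kind Zfp281 binds, was in 8 (13.1%) against 5.75%, in Efna3, Epha6, Ephb4, Nrp1, Plxna2, Plxnb3, Sema4c and Sema7a. The nuclear receptor motif AGGTCA was in 8 (13.1%) against 14.02%. These matches are descriptions of the letters in these windows.

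The labels were checked first. Zfp281 had 25.1 to 38.6 FPKM in the 6 Zfp281-present libraries and 0 to 3.96 FPKM in the 6 knockout libraries. The summed level of 8 ESC markers (Pou5f1, Nanog and others) was 2756 to 3510 FPKM in ESCs, 64.3 to 109.8 at cXENp1 and 64.7 to 80.5 in XEN lines. At cXENp3 it was 3813 in WT3 and 2197 in Rescue3.34, against 239 to 554 in the knockout lines. A single gene, Klf4, made up most of the XEN line sums, with 64.5 of 64.7 FPKM (XEN5) and 66.7 of 80.5 (XENB1). Pou5f1 had 0 and 10.4 FPKM there, against 21.0 to 39.6 at cXENp1, where Klf4 was at most 8.06. Of the knockout cXENp3 sums, Klf4 was 146 of 239 FPKM (KO2.6) and 123 of 554 (KO3.34). Its ESC values were 103 to 188 FPKM. The sum of 8 XEN markers (Gata4, Gata6, Sox17 and others) was 1031 to 1342 FPKM in XEN lines and 944 to 1156 in knockout cXENp3, against 5.25 to 13.5 in Zfp281-present cXENp3, so that these libraries, labelled as induced XEN cells, were low in the defining markers of that cell type. KO2.6 had raised XEN markers already as ESCs (48.4 FPKM against 1.197 to 5.98 in the other lines) and at cXENp1 (385 against 37.0 to 49.4). The sum of 11 fibroblast markers (Col1a1, Col3a1 and others), which covers carried-over feeder cells, was 1281 FPKM in Rescue3.34 at cXENp3, the highest of all libraries, against 38.1 in WT3 and 294 to 381 in the knockout lines at that stage. XEN lines, grown without feeders, had 571 to 662. The library descriptions begin with XH in 11 libraries and with JH in 3, which are the ESCs of all lines but KO2.6. The table gives no read counts, so depth is unknown and no interval for counting error was computed.

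**Figure D1:**
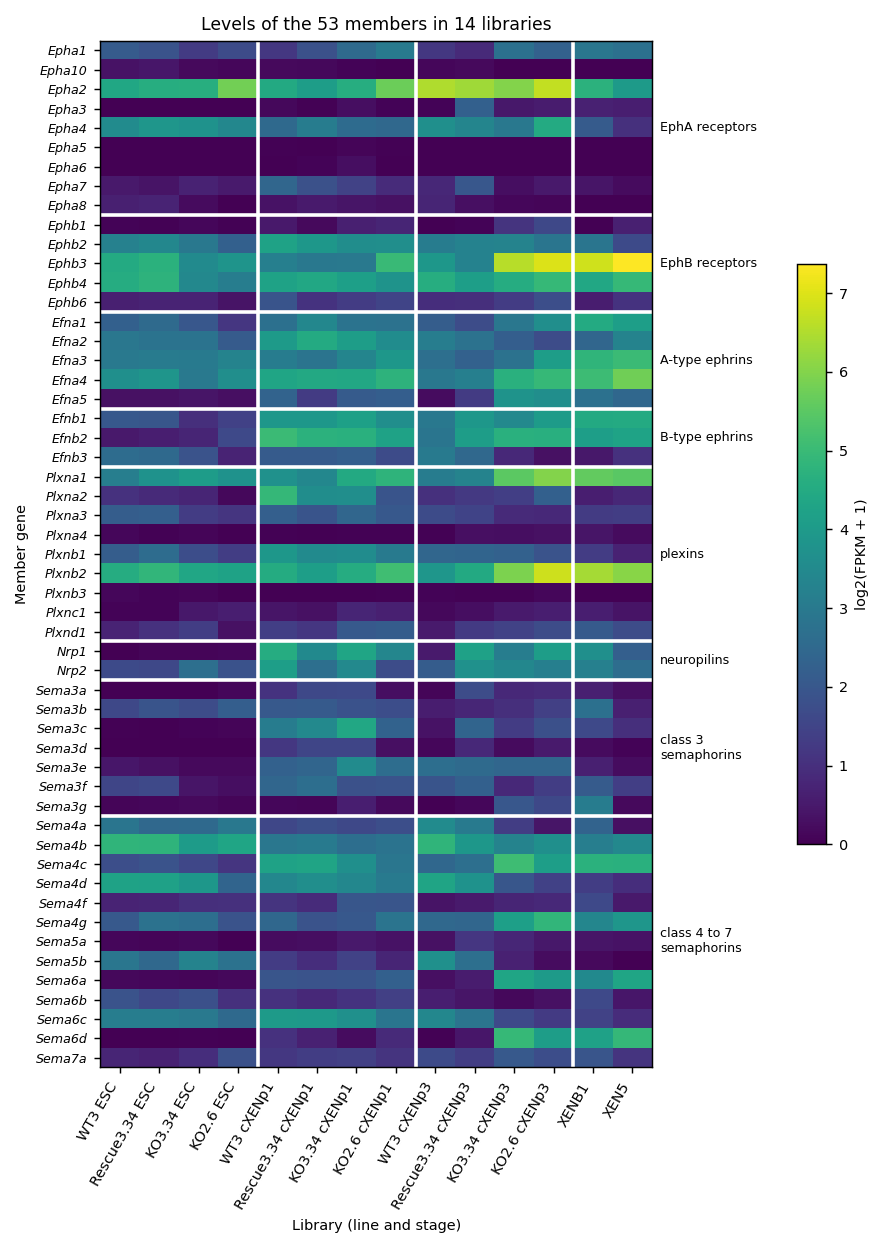
Expression of the members in every library. Rows are genes grouped by class, columns are the 14 libraries grouped by stage and genotype, and the colour gives log2(FPKM + 1). Ephb3, Plxna1, Plxnb2, Sema6a and Sema6d are high together in knockout cXENp3 and in XEN lines, while Sema5b and Sema4d are high in ESCs and in Zfp281-present cXENp3.

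Established XEN lines carried a different set of guidance genes from ESCs. Ephb3, Efnb1, Efnb2, Efna1, Efna3, Efna4, Efna5, Nrp1, Plxna1, Plxnb2, Sema4c, Sema6a and Sema6d were among those higher in XEN lines, and Sema5b, Sema4d, Sema4b, Sema6c and Epha4 were lower. Changes were tested on log2(FPKM + 1) with limma over all genes, and a gene was called at an adjusted p under 0.05. Of 35 members tested, 21 were called, 16 higher and 5 lower. Over all genes, 41.9% were called, 22.2% higher and 19.7% lower. The median change of the tested members was 0.78 on the log2 scale, against -0.02 for all genes. The 4 A-type ephrins, 2 B-type ephrins, 3 plexins and 1 neuropilin that were called were all higher, while the 8 called semaphorins of classes 4 to 7 split into 4 higher and 4 lower. The remaining 18 members did not reach 1 FPKM in 2 of these libraries and were not tested. With only 2 XEN lines, the count fell to 12 without XEN5, and the calls of Epha1, Plxnd1, Sema4b, Sema4d and Sema4g were lost there, with adjusted p of 0.0575 to 0.155 (limma). Without XENB1 the count was 14, and the same calls apart from Sema4d were lost. In either of these fits 17 of the 21 called members were tested. Sema6d, Sema6a, Efna5 and Nrp1, below 1 FPKM in every ESC library, were not tested there. In the main fit these genes met the filter only through the 2 XEN lines, so their p-values are not separate support for the rise. Both XEN libraries have the prefix XH, while all ESC libraries but that of KO2.6 have JH. With the prefix as a term, 19 of the 21 calls were kept, and those of Epha1 and Sema4b were lost. The p-values measure the spread between these lines, since no line was grown in replicate.

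By cXENp1, 48 hours into treatment, members of all 8 classes had changed. Nrp1, Efnb2, Sema3c, Plxna2, Sema3e, Efnb1 and Sema4c rose the most, and Sema5b, Sema4b and Epha4 fell. Of 44 members tested with line as a block, 18 were called, 15 higher and 3 lower, against 28.5% of all genes called, 14.7% higher and 13.8% lower. The median over the tested members was 0.69 and over all genes 0.00. Class 3 semaphorins made up 5 of the 15 called higher. This fit gives each stage 1 mean over the 4 lines, so a parting of the genotypes at cXENp3 widens its spread. Sema6a rose by 1.79, 1.75, 1.81 and 2.09 in the 4 lines and was not called. Efna5, with rises of 2.01, 0.93, 1.69 and 1.88, was not called either. The lack of a call here therefore does not show a lack of change. With the prefix as a term in the model 5 members were called, and of the 18 only Efnb2, Plxnb1, Sema3e and Sema3f kept their call. Leaving out KO3.34 or Rescue3.34 gave 10 calls each, leaving out WT3 gave 11 and leaving out KO2.6 gave 16. Epha4, Epha7, Ephb2, Ephb6, Sema3a, Sema3d and Sema5b were each lost on leaving out WT3, KO3.34 or Rescue3.34 in turn, and Sema4c without KO3.34 or Rescue3.34 (limma adjusted p of 0.0541 to 0.165).

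At cXENp3 the knockout and Zfp281-present lines had parted. Sema6d, Sema6a, Ephb3, Efna5, Plxna1, Plxnb2, Sema4g and Sema4c were the members most raised in the knockout lines, and Sema5b, Sema4a, Sema4d, Efnb3 and Sema6c were the most lowered. Of 44 members tested, 23 were called, 14 higher and 9 lower in the knockout lines, against 41.9% of all genes, 22.9% higher and 19% lower. The tested members' median was 0.39 on the log2 scale, against 0.01 for all genes. ESC markers, XEN markers and fibroblast markers differed between these groups too, with the sums given above, and their part in the result was not tested. In bulk RNA, fewer cells of a type and less RNA per cell cannot be told apart. Without WT3, leaving Rescue3.34 as the lone Zfp281-present library assumed to vary like the other groups, 10 members were called. The calls of Efna5, Ephb3, Plxna1, Plxnb2, Sema3g, Sema4a, Sema5b, Sema6a and Sema6d held in every alternative in which the gene was tested. Sema3g was not tested without KO2.6 or without KO3.34, so its call could not fail there. The other 14 were lost without WT3, with adjusted p of 0.0524 to 0.459 (limma).

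Among EphA receptors, Epha2 led in every group and was above the second member in every library. It had 19.8, 23.2, 23.7 and 54.6 FPKM in ESCs, 21.2, 16.3, 23.1 and 51.6 at cXENp1, 89.2, 78.9, 62.7 and 104 at cXENp3, and 25.6 and 15.1 in the XEN lines. Its level at cXENp3 was 62.7 to 104 FPKM whatever the genotype, above the 15.1 to 25.6 of XEN lines and, within each line, above that line's own ESC and cXENp1 values. From cXENp1 to cXENp3 it rose by 1.20 (SE 0.21, limma adjusted p = 0.00647) in the knockout lines and by 2.11 (SE 0.21, limma adjusted p = 0.00238) in the Zfp281-present lines. Knockout cXENp3 stood above XEN lines by 1.98 (SE 0.44, limma adjusted p = 0.0332). Epha4, a receptor that binds ephrins of both types, had 10.7, 13.6, 12.6 and 9.599 FPKM in ESCs, 4.69, 7.47, 4.91 and 4.63 at cXENp1, 11.7, 9.15, 6.82 and 21.8 at cXENp3, and 3.36 and 1.03 in the XEN lines. It was lowest in the XEN lines, with a change from ESCs of -2.07 (SE 0.35, limma adjusted p = 0.00252), and also fell at cXENp1 by 0.98 on the log2 scale. Epha1 had 3.296, 2.73, 1.45 and 2.24 FPKM in ESCs, 1.28, 2.52, 4.82 and 7.15 at cXENp1, 1.30, 0.846, 5.53 and 3.85 at cXENp3, and 6.47 and 5.64 in the XEN lines. It was higher in XEN lines than in any ESC library and higher in knockout than in Zfp281-present cXENp3, where the change was 1.45 (SE 0.31, limma adjusted p = 0.00514). Epha7 had 0.411, 0.302, 0.618 and 0.440 FPKM in ESCs, 4.45, 2.53, 1.75 and 0.870 at cXENp1, 0.749, 2.99, 0.212 and 0.419 at cXENp3, and 0.338 and 0.152 in the XEN lines. It rose at cXENp1, by 1.13 (SE 0.36, limma adjusted p = 0.0416), with the highest value in WT3.

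Ephb3, an EphB receptor, reached the highest level of any member. It had 21.6, 25.1, 10.5 and 13.1 FPKM in ESCs, 8.09, 6.78, 6.95 and 31.0 at cXENp1, 13.99, 8.67, 93.9 and 126 at cXENp3, and 114 and 165 in the XEN lines. The XEN lines and both knockout cXENp3 libraries were at 93.9 FPKM or above, and the other 10 libraries at 31.0 or below. The change in XEN lines against ESCs was 2.97 (SE 0.37, limma adjusted p = 0.000624), and in knockout against Zfp281-present cXENp3 3.19 (SE 0.52, limma adjusted p = 0.00144). The cXENp1 value of KO2.6 was 31.0 FPKM against 6.78 to 8.09 in the other lines, in the library that also had the raised XEN markers. Ephb4, the EphB receptor known from veins, stayed between 7.78 and 29.96 FPKM throughout. Together the 5 EphB receptors summed to 25.0 to 62.0 FPKM in ESCs, with Ephb4 and Ephb3 close to each other in WT3 and Rescue3.34. The sum was 128 to 166 in knockout cXENp3 and 141 to 199 in XEN lines, where Ephb3 alone made up most of it (means 109.8 and 139 FPKM). Ephb2 had 8.43, 9.75, 6.74 and 3.82 FPKM in ESCs and 11.4 to 17.9 at cXENp1, a rise of 0.88 (SE 0.22, limma adjusted p = 0.0169). Ephb6, a receptor without kinase activity, also rose at cXENp1, from at most 0.652 FPKM to between 1.11 and 2.80. Ephb1 had 0.0515, 0.0349, 0.0835 and 0.0320 FPKM in ESCs, 0.431, 0.145, 0.581 and 0.696 at cXENp1, 0.0118, 0.0414, 1.16 and 2.05 at cXENp3, and 0 and 0.568 in the XEN lines, and was higher in knockout cXENp3 by 1.32. Only the knockout cXENp3 libraries passed 1 FPKM, so Ephb1 met the filter through them alone and its p-value is not given as support.

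**Figure D2:**
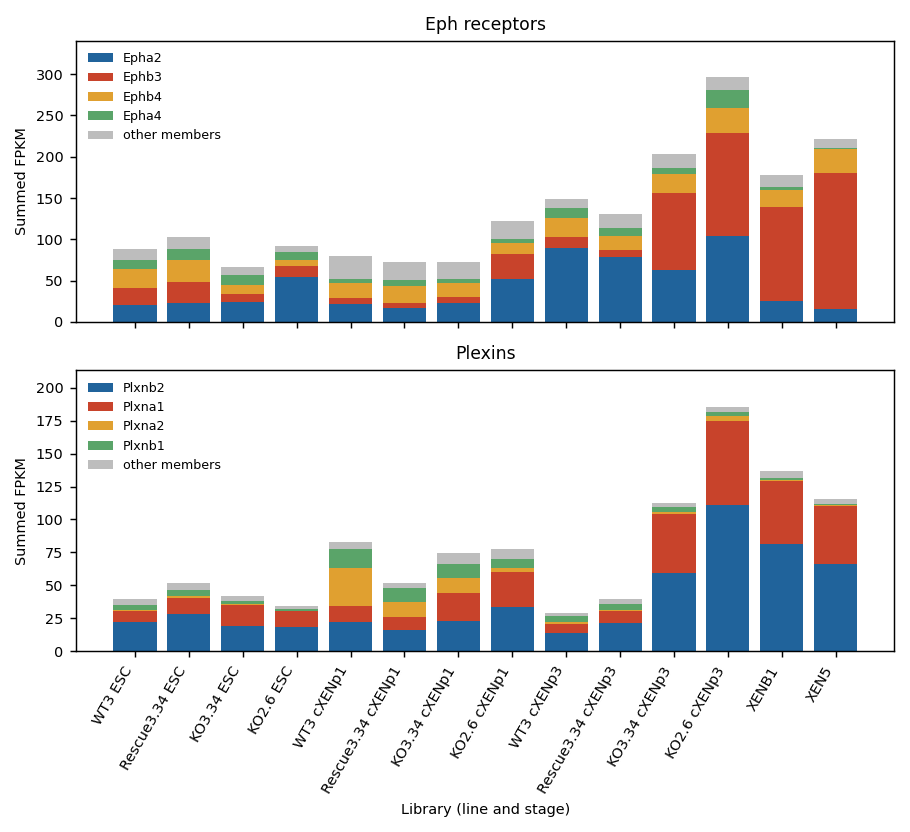
Summed FPKM of all Eph receptors (upper panel) and of all plexins (lower panel) in each of the 14 libraries, with 4 leading genes of each as coloured parts of the bar and the rest in grey. Both sums are highest in knockout cXENp3 of KO2.6, where Ephb3 had 125.7 and Plxnb2 111 FPKM, and Epha2 takes most of the Eph receptor sum in Zfp281-present cXENp3.

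Of the 3 B-type ephrins, 2 rose on leaving the ESC state. Efnb2, a ligand of Ephb4 and Ephb3, had 0.423, 0.546, 0.707 and 2.09 FPKM in ESCs, 31.6, 25.6, 24.6 and 17.9 at cXENp1, 6.30, 16.3, 24.8 and 24.3 at cXENp3, and 16.5 and 18.3 in the XEN lines. Every cXENp1 library was above every ESC library by a wide margin, with a change of 3.78 (SE 0.39, limma adjusted p = 0.000426), and XEN lines were above ESCs by 3.32 (SE 0.35, limma adjusted p = 0.000316). At cXENp3 the lowest value, 6.30 FPKM, was in WT3, and the call between genotypes there, 1.18 (SE 0.40, limma adjusted p = 0.039), was lost without WT3, KO2.6 or KO3.34. That call was also lost with quantile normalization and with a pseudocount of 0.1 (limma adjusted p = 0.100 and 0.0695). The filter on any value above 0 lost it too. Efnb1, encoded on the X chromosome, had 3.10, 2.93, 1.00 and 1.68 FPKM in ESCs, 13.9, 13.8, 17.1 and 11.4 at cXENp1, 6.73, 13.8, 10.0 and 15.5 at cXENp3, and 21.5 and 21.6 in the XEN lines. It rose at cXENp1 by 2.29 (SE 0.31, limma adjusted p = 0.00134) and stood at its highest in the XEN lines. Efnb3 was not called in XEN lines or at cXENp1. It had 5.05, 4.72, 2.72 and 0.668 FPKM in ESCs, 3.33, 3.36, 3.67 and 2.20 at cXENp1, 7.20, 4.57, 0.809 and 0.255 at cXENp3, and 0.385 and 1.05 in the XEN lines, and was lower in knockout cXENp3, with a change of -2.17 (SE 0.39, limma adjusted p = 0.00234). The leading B-type ephrin thus passed from Efnb3 in Zfp281-present ESCs to Efnb2 at cXENp1 and in knockout cXENp3, and to Efnb1 in XEN lines, where it was above Efnb2 in both libraries.

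A-type ephrins were led by Efna4 in the mean of every group. Efna4 had 11.8, 13.4, 6.84 and 11.4 FPKM in ESCs, 19.0, 20.9, 20.3 and 26.3 at cXENp1, 6.75, 8.13, 24.5 and 29.5 at cXENp3, and 32.3 and 53.7 in the XEN lines. Its knockout and Zfp281-present cXENp3 values did not overlap, with a change of 1.73 (SE 0.26, limma adjusted p = 0.000933), and XEN lines were above all ESC libraries by 1.88 (SE 0.33, limma adjusted p = 0.00295). Efna3 had 6.97, 7.44, 7.16 and 8.80 FPKM in ESCs, 7.48, 6.15, 9.26 and 13.9 at cXENp1, 5.47, 3.92, 5.93 and 16.4 at cXENp3, and 27.5 and 31.8 in the XEN lines. Only KO2.6 reached above 10 FPKM among the lines of the course, at cXENp1 and cXENp3, and the XEN lines were the highest, by 1.84 (SE 0.23, limma adjusted p = 0.000603). Efna1 had 3.82, 4.90, 2.98 and 1.23 FPKM in ESCs, 5.61, 9.69, 5.99 and 5.80 at cXENp1, 3.54, 2.28, 6.57 and 11.4 at cXENp3, and 21.6 and 16.7 in the XEN lines. It was highest in the XEN lines, by 2.33 (SE 0.40, limma adjusted p = 0.00293), and in knockout cXENp3 it was above the Zfp281-present lines by 1.33, a call lost without KO2.6, Rescue3.34 or WT3. These 3 genes are neighbours on mouse chromosome 3. Efna5 had 0.260, 0.270, 0.333 and 0.241 FPKM in ESCs, 4.06, 1.42, 3.302 and 3.58 at cXENp1, 0.190, 1.41, 12.8 and 11.6 at cXENp3, and 5.78 and 4.48 in the XEN lines. From below 0.4 FPKM in every ESC library it was raised in XEN lines by 2.26 (SE 0.22, limma adjusted p = 0.00021), and WT3 returned to 0.190 FPKM at cXENp3 while the knockout lines reached 11.6 and 12.8, a difference between genotypes of 2.96 (SE 0.39, limma adjusted p = 0.000546). Efna2 peaked at cXENp1. It had 6.62, 6.04, 6.02 and 3.34 FPKM in ESCs, 15.3, 21.6, 16.1 and 11.1 at cXENp1, 7.79, 5.87, 3.60 and 2.30 at cXENp3, and 4.35 and 8.87 in the XEN lines, and the rise from ESCs was 1.38 (SE 0.22, limma adjusted p = 0.0027).

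Plexins, the semaphorin receptors, were led by Plxnb2 and Plxna1. Plxnb2 had 22.5, 28.2, 19.4 and 18.2 FPKM in ESCs, 22.1, 16.4, 22.9 and 33.4 at cXENp1, 13.6, 21.5, 59.5 and 111 at cXENp3, and 81.5 and 66.2 in the XEN lines. Knockout cXENp3 and XEN lines were at 59.5 to 111 FPKM, against 13.6 to 33.4 in the other libraries, and the changes were 2.19 (SE 0.33, limma adjusted p = 0.00105) between genotypes and 1.71 (SE 0.24, limma adjusted p = 0.0011) against ESCs. Plxna1, a partner of the neuropilins, had 7.94, 12.6, 15.9 and 12.6 FPKM in ESCs, 12.2, 9.72, 21.1 and 26.7 at cXENp1, 7.48, 8.77, 44.5 and 63.9 at cXENp3, and 47.9 and 44.0 in the XEN lines. Its change was 2.58 (SE 0.28, limma adjusted p = 0.000241) in knockout against Zfp281-present cXENp3, and 1.86 (SE 0.28, limma adjusted p = 0.00165) in XEN lines against ESCs. The 9 plexins summed to 34.3 to 51.6 FPKM in ESCs, 113 to 185 in knockout cXENp3 and 116 to 137 in XEN lines, and to 29.4 and 39.5 in Zfp281-present cXENp3. Plxna2 and Plxnb1 had their highest means at cXENp1. Plxna2 had 1.06, 0.839, 0.700 and 0.113 FPKM in ESCs, 29.3, 11.2, 11.6 and 2.78 at cXENp1, 1.05, 1.35, 1.61 and 3.76 at cXENp3, and 0.532 and 0.781 in the XEN lines, a rise at cXENp1 of 2.81 (SE 0.52, limma adjusted p = 0.00533), with the lowest value in KO2.6, the 1 line in which cXENp3 was higher still. Plxnb1 had 3.48, 5.15, 2.32 and 1.53 FPKM in ESCs, 13.9, 10.6, 10.9 and 7.26 at cXENp1, 4.44, 4.24, 3.85 and 2.72 at cXENp3, and 1.46 and 0.626 in the XEN lines, and its rise at cXENp1 was 1.55 (SE 0.22, limma adjusted p = 0.00148). Plxnd1, known as a plexin of vessels, stayed at or below 3.44 FPKM. It had 0.663, 1.07, 1.51 and 0.249 FPKM in ESCs, 1.60, 1.22, 3.17 and 3.44 at cXENp1, 0.452, 1.37, 1.74 and 2.26 at cXENp3, and 3.23 and 2.27 in the XEN lines, and its call in XEN lines, 1.04 (SE 0.32, limma adjusted p = 0.0339), was lost without XEN5, XENB1, WT3 or Rescue3.34.

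Nrp1, a co-receptor for class 3 semaphorins and for vascular endothelial growth factor, was listed at or near 0 in ESCs. It had 0, 0.0794, 0.0672 and 0.0956 FPKM in ESCs, 22.6, 10.2, 19.1 and 9.40 at cXENp1, 0.451, 17.5, 7.68 and 16.1 at cXENp3, and 11.8 and 3.67 in the XEN lines. All cXENp1 libraries were above all ESC libraries, with a change of 3.86 (SE 0.68, limma adjusted p = 0.00416). WT3 was back at 0.451 FPKM at cXENp3, whereas Rescue3.34, the library with the highest fibroblast markers, had 17.5. The part of the fibroblast markers in that value was not tested. The Nrp1 window printed above holds 1 GGGGAGGGG and 1 AGGTCA. Nrp2, the second neuropilin, had 2.17, 2.02, 5.44 and 2.60 FPKM in ESCs, 16.4, 5.48, 10.1 and 2.25 at cXENp1, 3.39, 12.3, 9.70 and 8.10 at cXENp3, and 8.22 and 5.15 in the XEN lines. It was the leading neuropilin in every ESC library, and its test at cXENp1 did not pass (limma adjusted p = 0.135), with KO2.6 at 2.25 FPKM against 5.48 to 16.4 in the other lines.

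Class 3 semaphorins, the secreted ligands of the neuropilin and plexin complexes, were low in ESCs and had their highest mean sum at cXENp1. Their sum was 2.97 to 5.22 FPKM in ESCs, 14.8 to 40.9 at cXENp1, 9.06 to 16.9 at cXENp3 and 3.73 to 19.9 in XEN lines. Sema3c had 0.0395, 0.00789, 0.0465 and 0.0773 FPKM in ESCs, 7.51, 10.0, 20.4 and 3.99 at cXENp1, 0.275, 4.24, 1.48 and 2.49 at cXENp3, and 2.09 and 0.990 in the XEN lines. Its rise at cXENp1 was 3.26 (SE 0.44, limma adjusted p = 0.00124), with every cXENp1 value above every ESC value. Sema3e, which binds Plxnd1, had 0.360, 0.264, 0.144 and 0.138 FPKM in ESCs, 3.84, 4.31, 10.8 and 5.19 at cXENp1, 5.32, 4.87, 4.36 and 4.41 at cXENp3, and 0.580 and 0.196 in the XEN lines. It rose by 2.43 (SE 0.28, limma adjusted p = 0.000642) and, unlike in XEN lines, stayed at 4.36 to 5.32 FPKM in all 4 lines at cXENp3. Knockout cXENp3 exceeded XEN lines by 1.97 (SE 0.29, limma adjusted p = 0.0055). Sema3a, a repellent of growing axons, had 0.00600, 0.0119, 0 and 0.105 FPKM in ESCs, 1.11, 2.06, 2.09 and 0.218 at cXENp1, 0.0799, 2.29, 0.813 and 0.890 at cXENp3, and 0.575 and 0.227 in the XEN lines. Sema3d had 0.0118, 0, 0 and 0.0100 FPKM in ESCs, 1.30, 1.90, 1.90 and 0.223 at cXENp1, 0.100, 0.802, 0.162 and 0.453 at cXENp3, and 0.173 and 0.0506 in the XEN lines. Both rose at cXENp1, with changes of 1.11 and 1.13 (limma adjusted p = 0.0308 and 0.0156), and in both KO2.6 had the lowest value at that stage. Sema3d reached 1 FPKM at cXENp1 only, so it met the filter through that stage alone. Sema3a, Sema3c, Sema3d and Sema3e all lie on chromosome 5, and all 4 rose. Sema3f had 1.92, 2.07, 0.339 and 0.202 FPKM in ESCs, 4.43, 5.36, 2.52 and 2.67 at cXENp1, 2.77, 3.83, 0.797 and 1.52 at cXENp3, and 3.34 and 1.58 in the XEN lines. It rose at cXENp1 by 1.24 (SE 0.21, limma adjusted p = 0.00351) and was lower in knockout than in Zfp281-present ESCs. Sema3g had 0.0757, 0.0870, 0.142 and 0.0685 FPKM in ESCs, 0.0848, 0.0710, 0.522 and 0.135 at cXENp1, 0.0150, 0.0889, 3.04 and 2.06 at cXENp3, and 7.51 and 0.134 in the XEN lines. Within the course only the knockout cXENp3 libraries passed 1 FPKM, a difference between genotypes of 1.74, while the XEN lines were unlike each other. Sema3g met the filter through those knockout libraries alone, so its p-value is not given as support. Sema3b, the leading class 3 member in ESCs, had 2.00, 2.77, 2.30 and 3.62 FPKM in ESCs, 3.13, 3.28, 2.64 and 2.36 at cXENp1, 0.494, 0.731, 1.01 and 1.62 at cXENp3, and 5.65 and 0.557 in the XEN lines. It fell from cXENp1 to cXENp3 in the Zfp281-present lines, with a change of -1.39 (limma adjusted p = 0.0146).

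Semaphorins of classes 4 to 7 exchanged members between the states. The class 6 pair Sema6d and Sema6a, transmembrane ligands of A-type plexins, had the largest positive changes of all members in both the XEN and the cXENp3 genotype comparison. Sema6d had 0.0142, 0.0153, 0.0215 and 0.0162 FPKM in ESCs, 1.07, 0.605, 0.174 and 0.843 at cXENp1, 0.0359, 0.371, 29.9 and 16.1 at cXENp3, and 17.7 and 29.4 in the XEN lines. Knockout cXENp3 and the XEN lines were at 16.1 FPKM or above and the other 10 libraries at 1.07 or below. The changes were 4.27 (SE 0.33, limma adjusted p = 5.28e-05) between genotypes at cXENp3 and 4.55 (SE 0.27, limma adjusted p = 2.22e-05) against ESCs. Sema6a had 0.111, 0.0909, 0.0733 and 0.116 FPKM in ESCs, 2.85, 2.67, 2.75 and 3.75 at cXENp1, 0.239, 0.486, 19.2 and 15.2 at cXENp3, and 10.4 and 19.1 in the XEN lines. It reached an intermediate level at cXENp1 in all lines, fell back in WT3 and Rescue3.34, and rose further in the knockout lines, with a difference at cXENp3 of 3.74 (SE 0.23, limma adjusted p = 1.36e-05). Sema4c, a ligand of Plxnb2, had 2.43, 2.71, 1.96 and 1.21 FPKM in ESCs, 17.9, 18.6, 11.8 and 6.50 at cXENp1, 4.53, 5.43, 33.0 and 16.7 at cXENp3, and 25.0 and 24.5 in the XEN lines. It rose at cXENp1 by 2.19 (SE 0.55, limma adjusted p = 0.0182) and had the highest mean of these classes in XEN lines and in knockout cXENp3, although Sema6d was above it in XEN5 and Sema4g in KO2.6 at cXENp3. Sema4g, another ligand of Plxnb2, had 3.16, 5.91, 5.31 and 2.73 FPKM in ESCs, 4.55, 2.72, 3.08 and 6.19 at cXENp1, 4.62, 4.37, 16.9 and 27.8 at cXENp3, and 9.43 and 13.8 in the XEN lines. Its difference between genotypes at cXENp3 was 2.05 (SE 0.41, limma adjusted p = 0.00385). So at cXENp3 the knockout lines were high in the receptor Plxnb2 and in both of these ligands, although the calls of both ligands were lost without WT3.

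Of the 9 members lower in knockout cXENp3, 5 belonged to these classes too. Sema5b had 6.42, 4.65, 8.90 and 5.91 FPKM in ESCs, 1.47, 0.935, 1.72 and 0.685 at cXENp1, 12.02, 5.46, 0.601 and 0.175 at cXENp3, and 0.130 and 0.0129 in the XEN lines. It fell at cXENp1, came back in WT3 and Rescue3.34, and stayed at 0.601 FPKM or below in knockout cXENp3 and XEN lines, with a difference between genotypes of -2.74 (SE 0.39, limma adjusted p = 0.000793). Sema4d, a ligand of Plxnb1, had 17.9, 17.6, 13.8 and 4.22 FPKM in ESCs, 9.63, 11.6, 9.58 and 7.18 at cXENp1, 18.7, 12.6, 2.89 and 1.68 at cXENp3, and 1.51 and 0.944 in the XEN lines. XEN lines and knockout cXENp3 were at 2.89 FPKM or below and every other library at 4.22 or above. Sema4a had 6.30, 4.61, 4.76 and 6.71 FPKM in ESCs, 1.94, 2.44, 2.01 and 2.41 at cXENp1, 10.9, 7.02, 1.53 and 0.348 at cXENp3, and 4.07 and 0.237 in the XEN lines, and was lower in knockout cXENp3, with a change of -2.40 (SE 0.34, limma adjusted p = 0.000802). Sema6c had 7.73, 7.72, 6.84 and 4.76 FPKM in ESCs, 15.3, 14.4, 12.1 and 6.26 at cXENp1, 9.74, 6.14, 2.12 and 1.39 at cXENp3, and 1.76 and 0.929 in the XEN lines. Like Efna2 and Plxnb1 it had its highest mean at cXENp1, and like Sema4d it was low in XEN lines, with a change from ESCs of -1.73 (SE 0.30, limma adjusted p = 0.00276). Sema4b, the leading semaphorin of ESCs, had 27.4, 26.9, 15.4 and 19.2 FPKM in ESCs, 6.57, 7.29, 5.36 and 6.04 at cXENp1, 27.6, 13.9, 8.74 and 11.7 at cXENp3, and 7.86 and 9.80 in the XEN lines. It dipped at cXENp1 in all 4 lines, with a change of -1.64 (SE 0.23, limma adjusted p = 0.00153), and recovered most in WT3.

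**Figure D3:**
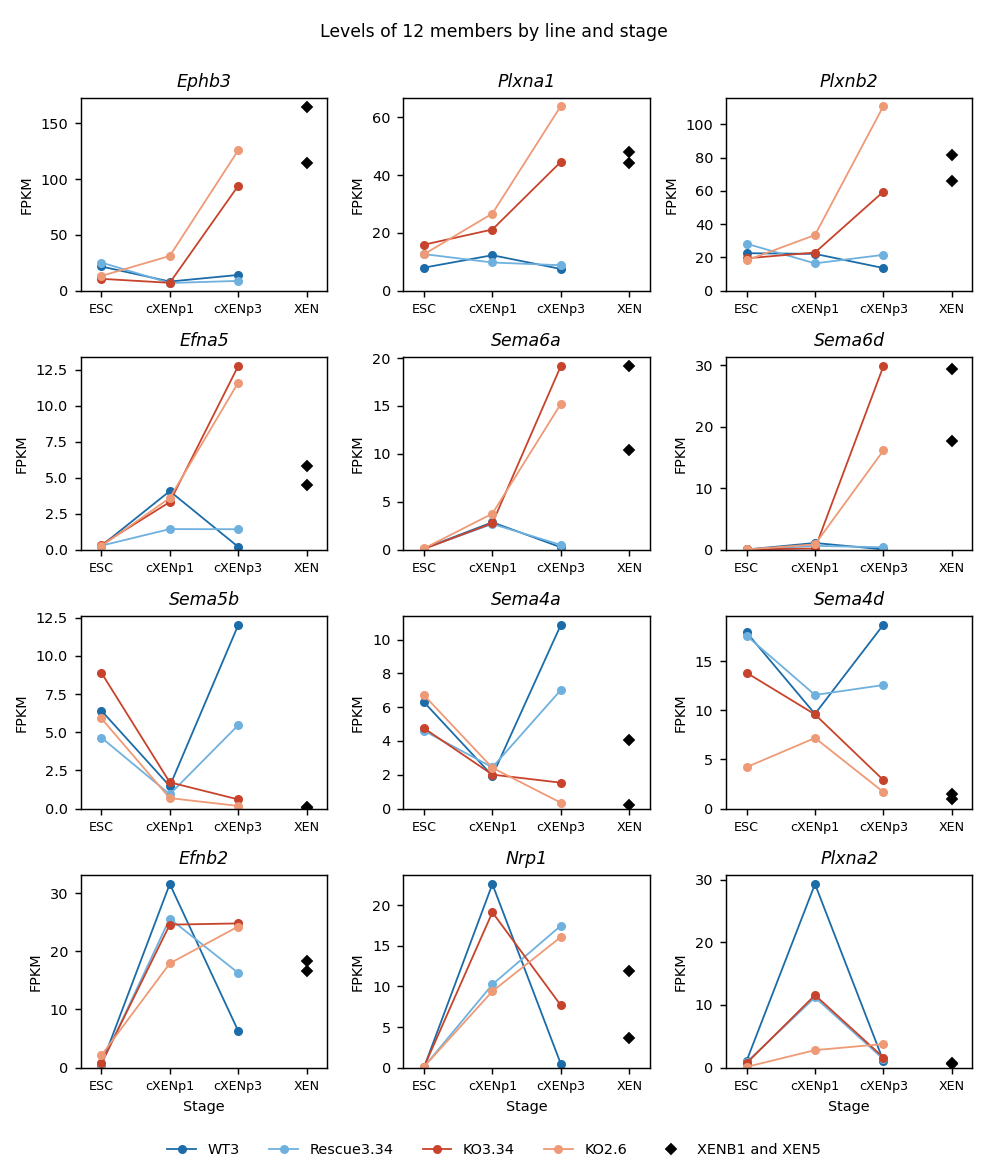
FPKM of 12 members at each stage on linear axes, with 1 coloured line per cell line and the 2 XEN lines as black diamonds at the right. Efnb2 and Nrp1 rise in all 4 lines at cXENp1, Ephb3, Plxna1, Plxnb2, Efna5, Sema6a and Sema6d are higher in the knockout than in the Zfp281-present lines at cXENp3, and Sema5b, Sema4a and Sema4d are lower.

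The change from cXENp1 to cXENp3 was compared directly between genotypes. In the knockout lines 18 of 44 members were called, 10 higher and 8 lower, against 22.5% of all genes (12.9% higher and 9.58% lower). In the Zfp281-present lines 11 were called, 4 higher and 7 lower, against 10.5% (4.85% higher and 5.67% lower). The difference between these changes, tested as an interaction, was called for 13 members against 12% of all genes (7.35% and 4.65% in the same directions), 9 with the more positive change in the knockout lines and 4 with the more negative. The 9 were Sema6d at 4.58 (SE 0.52, limma adjusted p = 0.00434), Sema6a at 3.57 (SE 0.36, limma adjusted p = 0.00295), Sema4c at 3.01 (SE 0.32, limma adjusted p = 0.00339), Efna5, Ephb3, Plxnb2, Plxna1, Efna4 and Sema3g. The 4 were Sema5b at -2.71 (SE 0.36, limma adjusted p = 0.00695), Sema4a, Sema4d and Efnb3. Sema6a and Sema4c moved in opposite directions, rising by 2.098 and 1.32 in the knockout lines and changing by -1.47 and -1.69 in the others. Ephb3 rose by 2.78 (SE 0.41, limma adjusted p = 0.00307) in the knockout lines. Efna2 and Plxnb1 fell in both genotypes, with changes of -1.88 and -1.23 in the knockout lines and -1.30 and -1.30 in the others. Without WT3, which leaves 1 Zfp281-present line, no member was called in the Zfp281-present change or in the interaction, and without Rescue3.34 the counts were 4 and 5. The knockout count was 9 without KO3.34, where Efna5, Efnb3, Epha2, Plxna1, Plxna3, Plxnb1, Sema4f, Sema4g and Sema6b were lost, and the interaction count 6 without KO2.6.

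The XEN against ESC comparison and the genotype comparison at cXENp3 contrast groups that share no library, although ESC libraries entered the spread of both, and 16 members were called in both. All 16 had the same sign, 12 higher and 4 lower. They made up 76.2% of the 21 members called in XEN lines and 69.6% of the 23 called between genotypes. Over all genes, 3489 were called in both, and 3455 of them (99%) had the same sign. These were 67.3% and 63.1% of all genes called in the respective comparisons, close to the shares of the members. The 12 that were higher in both were Sema6d, Sema6a, Ephb3, Efna5, Sema4c, Plxna1, Plxnb2, Efna4, Efnb2, Efna1, Sema4g and Epha1, and the 4 that were lower were Sema5b, Sema4d, Sema6c and Sema4b.

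**Figure D4:**
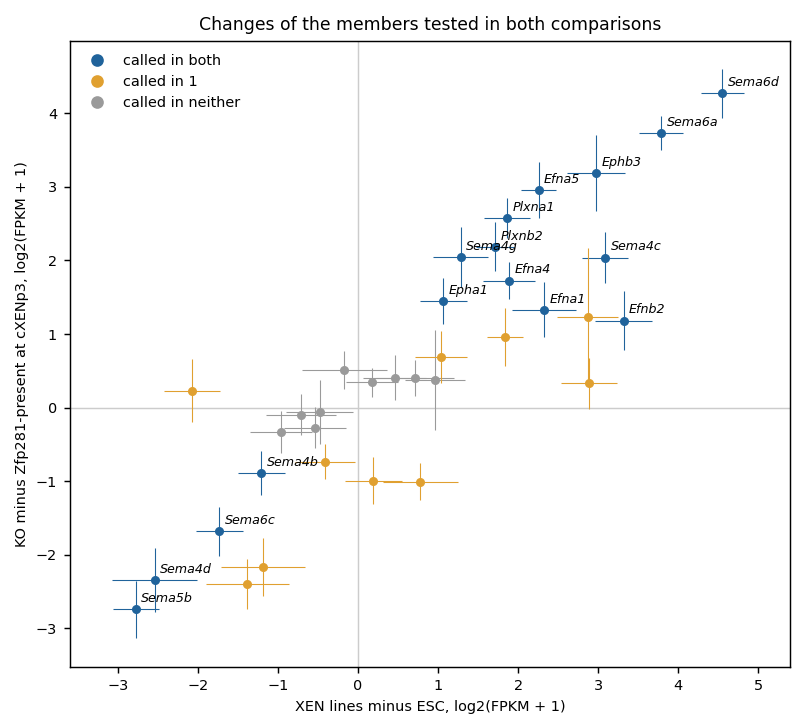
Log2 change in XEN lines against ESCs (horizontal) and in knockout against Zfp281-present lines at cXENp3 (vertical) for each member tested in both, with bars of 1 standard error, coloured by whether both, 1 or neither comparison called it. Members called in both lie in the upper right and lower left, with Sema6d at 4.55 and 4.27 and Sema5b at -2.77 and -2.74.

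Knockout cXENp3 was also set directly against the XEN lines. Of 44 members tested, 4 (9.09%) were called, all higher in knockout cXENp3, against 4.12% of all genes called (2.64% higher). They were Epha2, Epha4, Sema3e and Ephb1, with differences of 1.98, 2.17, 1.97 and 1.04 (limma adjusted p = 0.0332, 0.0313, 0.0055 and 0.0467). Ephb1 met the filter only through the knockout cXENp3 libraries. With 2 libraries on each side, the lack of a call does not show equal levels. Of the A-type ephrins, with a median change of -0.90, 4 had an unadjusted p under 0.05 (limma). Among all 44 members tested, 13 did. None was called without WT3 or without Rescue3.34, which enter this model only through the shared spread, and the adjusted p of the 4 then lay between 0.0560 and 0.171. Ephb1 was lost without XENB1, Epha2 and Epha4 without XEN5, and Epha4 without KO2.6.

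Few members were called between genotypes before cXENp3. In ESCs 2 of 44 members were called, against 1.97% of all genes (0.917% lower), and both were lower in the knockout lines. Ephb4 had 22.6 and 26.4 FPKM in WT3 and Rescue3.34 against 9.85 and 7.78 in KO3.34 and KO2.6, a change of -1.38 (SE 0.25, limma adjusted p = 0.0318). Sema3f had 1.92 and 2.07 FPKM against 0.339 and 0.202, a change of -1.24 (SE 0.25, limma adjusted p = 0.0414). Both calls were lost with the description prefix as a term (limma adjusted p of 0.109 to 0.135) and without KO2.6, Rescue3.34 or WT3 (0.0827 to 0.675), and 8 members were called without KO3.34. At cXENp1 no member was called by limma, against 0.485% of all genes (0.364% higher and 0.121% lower), and 9 had an unadjusted p under 0.05. Without KO3.34, 3 were called at cXENp1.

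Some members were hardly present in any library. Epha5, Epha6, Epha8, Epha10, Plxna4, Plxnb3 and Plxnc1 stayed below 1 FPKM throughout, the highest being Plxnc1 at 0.690. Epha3 was listed at 0 in all ESC libraries and passed 1 FPKM in 1 library only, Rescue3.34 at cXENp3 (3.83 FPKM), the library with the highest fibroblast markers. Sema5a, also above 1 FPKM in that library only (1.25), was not tested in the course either. At the other end, 34 members reached 5 FPKM in at least 1 library, 19 reached 20, and 16 were at 1 FPKM or above in all 14. Plxna3, Sema4f and Sema6b, at no more than 4.40, 2.91 and 2.71 FPKM, were called only as falls from cXENp1 to cXENp3 in the knockout lines, apart from Plxna3, which was also lower in knockout than in Zfp281-present cXENp3, with a change of -0.73. Sema7a, a semaphorin with a lipid anchor, stayed between 0.609 and 3.17 FPKM and was not called in any comparison.

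Partners that act next to these receptors were examined as a list of 38 genes, all found in the table. In XEN lines against ESCs 12 of 32 tested (37.5%) were called, 8 higher and 4 lower, against 41.9% of all genes. The largest rises were those of Flt1, a receptor that shares ligands with Nrp1, at 5.20 (SE 0.28, limma adjusted p = 1.70e-05), Mical2, an actin oxidase of the family that acts downstream of plexins, at 4.70 (SE 0.25, limma adjusted p = 1.66e-05), and Adam10, a protease that cuts ephrins from the membrane, at 3.11 (SE 0.28, limma adjusted p = 0.000143). Nck2 and Src rose too, and Dpysl5 and Pak1 fell, with changes of 1.69, 1.34, -1.59 and -1.35. Knockout against Zfp281-present cXENp3 gave 17 calls of 36 (47.2%), 11 higher and 6 lower, against 41.9% of all genes, with Flt1 at 4.48, Adam10 at 2.88, Mical2 at 2.66, Arhgef12 at 1.30, Src at 1.12 and Farp2 at 1.02. Crmp1, Pak1, Mical1, Tiam1 and Dpysl5 were lower there, at -2.19, -1.35, -1.34, -1.08 and -1.02. At cXENp1 12 of 36 (33.3%) were called, 10 higher and 2 lower, against 28.5% of all genes. Among those not called, Adam10 and Flt1 were higher in all 4 lines there, by 1.54 and 1.02 (limma adjusted p = 0.0883 and 0.393). Crmp1, Dpysl3, Dpysl4 and Dpysl5, of the collapsin response mediator family that relays class 3 semaphorin signals, rose by 1.69, 2.01, 2.07 and 1.48 at that stage, while the fifth member, Dpysl2, was not called (0.34, limma adjusted p = 0.447). Nck2, Met, Pak1 and Vav3 also rose, by 1.36, 1.31, 1.11 and 1.09, and Vegfa and Tiam1 fell, at -1.97 and -1.47. In the interaction, Flt1, Adam10 and Nck2 were called, at 4.38, 3.52 and 1.53. No partner was called by limma between genotypes in ESCs or at cXENp1, or between knockout cXENp3 and XEN lines, and 7, 3 and 8 had an unadjusted p under 0.05 there.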

How the data were processed

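PolyA RNA-seq libraries were read as paired ends of 150 bases on a HiSeq4000, per the labels' protocols. STAR 2.5.3, Cufflinks 2.1.1 and the build mm9 are named in the submitters' processing notes; the annotation, the strand setting and the unit are not given in the sources used here. The deposited values were taken as FPKM, per the labels' naming of Cufflinks and from the values, which are not whole, never negative and sum to 424406 to 718138 per library. Values moved in no steps of 1 fragment, so reads were not recovered and depth is unknown.

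The scale of analysis was log2(FPKM + 1), on which changes of low genes come out too small. Genes with at least 1 FPKM in at least 2 fitted libraries were kept (13191 genes, 12372 for XEN lines against ESCs, 13386 for knockout cXENp3 against XEN lines) and fitted with limma 3.58.1 in R 4.3.3 (lmFit, eBayes with trend), with Benjamini-Hochberg adjustment over all genes within each of 9 comparisons. Line was a block in comparisons across stages, since the same line gave 1 library at each stage. The fit of cXENp1 against ESC had 1 mean per stage over all 4 lines, so differences between genotypes within a stage entered its spread. Genotypes were compared over 6 groups of 2 libraries with a shared spread, and WT3 and Rescue3.34 stand together as Zfp281-present. XEN against ESC and cXENp1 against ESC share the ESC libraries, and the comparisons at cXENp3 share the knockout cXENp3 libraries. Some called members reached 1 FPKM only in the group where they were high, so that group decided that they were tested. These were Sema6d, Sema6a, Efna5, Nrp1 and Sema5b in XEN against ESC, and Sema3d at cXENp1. Sema3g and Ephb1 were such members in comparisons with knockout cXENp3. Their p-values are not separate support for these changes.

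Members named with a value in every library were those called with an absolute log2 change of at least 1 in XEN against ESC, cXENp1 against ESC, the genotype comparison at cXENp3 or the interaction, and the leading member of each class. The members and the lists of markers and partners were chosen with earlier results of these data known. On simulated data with 200 genes changed by 2 on the log2 scale, the fits recovered 77.5% in XEN against ESC, 91.5% in cXENp1 against ESC, 77.5%, 75% and 76.5% between genotypes at ESC, cXENp1 and cXENp3, 69.5% and 60.5% from cXENp1 to cXENp3 in knockout and Zfp281-present lines, 25% in the interaction and 80% in knockout cXENp3 against XEN lines. Each simulated gene had 1 level in all groups apart from the added change, with no effect of line, prefix or genotype. Such effects are present in these data, so the recovered shares do not carry over to them. Alternatives covered the pseudocount (0.1), quantile normalization, a filter on a mean of 5 or only on a value above 0, a smallest absolute change of 1, no trend in eBayes, the description prefix, the line block and leaving out each line. Leaving out the single library of Rescue3.34 at cXENp3 was added after seeing the data, because its fibroblast markers were the highest.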

Additional observations from a re-analysis of the deposited data

Results flagged for a closer look

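In 13 members the change from cXENp1 to cXENp3 differed between knockout and Zfp281-present lines in the limma interaction test, on the log2 scale. The difference, knockout minus Zfp281-present, was 4.58 for Sema6d, 3.57 for Sema6a, 3.01 for Sema4c, 2.62 for Efna5, 2.26 for Ephb3, 1.67 for Plxnb2, 1.52 for Plxna1, 1.52 for Efna4 and 1.46 for Sema3g. It was -2.71 for Sema5b, -2.41 for Sema4a, -2.03 for Sema4d and -2 for Efnb3. No call of the 13 held without WT3, with adjusted p of 0.0851 to 0.399 (limma).

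4 values stood far from the other lines at their stage by Dixon's criterion, of 74 groups of 4 libraries examined, where chance marks about 1 in 20. Ephb3 was highest in KO2.6 at cXENp1, with 31.0 FPKM. Efna2 was lowest in KO2.6 ESCs, with 3.34 FPKM. Epha4 and Efna1 were highest in Rescue3.34 at cXENp1, with 7.47 and 9.69 FPKM.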

How the results depend on the processing

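No called member changed sign: of 1245 values of called members under the alternatives, 1018 kept their call and 227 lost it. The filters, the smallest change of 1 and eBayes without trend leave the change itself as it was, so its sign could not turn there. Members no longer tested under an alternative are not among the 1245. With a mean of at least 5 FPKM as the filter, which tests fewer genes, members called were 10 at cXENp1 (18 as designed), 12 between genotypes at cXENp3 (23), 10 and 7 from cXENp1 to cXENp3 in knockout and Zfp281-present lines (18 and 11), 6 in the interaction (13), 1 between genotypes in ESCs (2) and 2 in knockout cXENp3 against XEN lines (4). With any value above 0 as the filter they were 7 in the interaction, 1 between genotypes at cXENp1 (0 as designed) and 2 against XEN lines. Quantile normalization gave 1 between genotypes in ESCs, and moved the median of all genes from 0.01 to -0.10 at cXENp3 and from -0.02 to -0.11 in XEN lines. The description prefix as a term gave 5 at cXENp1 and 0 between genotypes in ESCs, and the cause was not tested. In XEN lines against ESCs it kept 19 of the 21 calls. Epha1 and Sema4b were lost there (limma adjusted p of 0.0678 to 0.0845). Without the replicate block of line, 17, 18, 11 and 11 members were called at cXENp1, in the knockout change, in the Zfp281-present change and in the interaction. Calls lost without it were those of Sema5b at cXENp1, Epha2 in the knockout change, and Ephb3 and Sema4d in the interaction. Leaving out 1 line in turn, the counts ranged from 12 to 23 in XEN lines, 10 to 16 at cXENp1, 0 to 8, 0 to 3 and 10 to 19 between genotypes at ESC, cXENp1 and cXENp3, 9 to 17 and 0 to 14 from cXENp1 to cXENp3 in knockout and Zfp281-present lines, 0 to 9 in the interaction and 0 to 4 against XEN lines. Without Rescue3.34 at cXENp3 alone they were 22 between genotypes, 10 in the Zfp281-present change and 13 in the interaction, but not of the same genes: Efna1 and Sema3f were lost in the first, Efna2, Plxnb1, Sema3b and Sema4a in the second, and Ephb3 and Plxna1 in the third. With 1 library per line and stage and unknown depth, values below 1 FPKM carry an error that cannot be stated.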

Other observations

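Endothelial markers were read beside Nrp1, Flt1 and Plxnd1, which are known from vessels. Tek had 40.0 and 18.6 FPKM and Cdh5 45.3 and 16.0 FPKM in knockout cXENp3 (KO2.6 and KO3.34), and 14.2 and 16.4 (Tek) and 3.90 and 20.1 (Cdh5) in XENB1 and XEN5. Both were at or below 4.30 FPKM in all other libraries. Pecam1 was at or below 1.84 FPKM in knockout cXENp3 and XEN lines and at 11.8 to 38.8 in ESCs, Tie1 was at or below 0.265 FPKM in all 14 libraries, and Cldn5 was listed at 0 in both XEN lines. All 6 listed endothelial markers were found, and their sum was 38.2 to 87.7 FPKM in knockout cXENp3, 18.3 to 33.3 in Zfp281-present cXENp3 and 19.6 to 37.4 in XEN lines.

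The other marker lists gave these sums. The 7 neural progenitor markers had 38.2 to 96.2 FPKM at cXENp1, 79.8 to 101 in ESCs, 58.7 to 136 at cXENp3 (highest in Rescue3.34) and 12.5 to 19.8 in XEN lines. Of these, Tubb3 alone had 70.5, 84.2, 35.0 and 59.4 FPKM in ESCs and 118 in Rescue3.34 at cXENp3. KO3.34 ESCs also had 36.1 FPKM of Olig2 and 27.5 of Sox1. The 6 trophoblast markers had 6.69 to 111 FPKM in ESCs and at most 34.2 at cXENp3. In ESCs Tfap2c alone had 67.7, 107, 54.5 and 1.86 FPKM, while Cdx2, Elf5, Gata3 and Hand1 were at 0.159 or below. The 6 mesendoderm markers had at most 7.85 FPKM in any library. The 5 neural crest markers had at most 20.004 FPKM outside KO2.6 ESCs, which had 35.8, with Foxd3 alone at 35.2.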
